A study of Homo sapiens with 6 samples.

Results

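The AP-1 transcription factors and their closest dimer partners were followed in REH cells exposed to S3I-201. The 10 genes were taken by symbol from the 26364 genes of the authors' deposited table: the Fos genes FOS, FOSB, FOSL1 and FOSL2, the Jun genes JUN, JUNB and JUND, and the related factors ATF3, JDP2 and BATF. All 10 had an adjusted p, as did 11912 genes in all. REH is an established cell line from a human acute lymphoblastic leukaemia of B-cell precursors. Cells of this single line were exposed for 6 h to 50 µM S3I-201, a compound made to bind STAT3, and controls received the solvent DMSO. Each of the 2 groups held 3 libraries, from independent experiments. The comparison asks which transcripts differed once STAT3 was targeted with the compound.

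AP-1 is a family of dimers built from basic leucine zipper (bZIP) proteins. Jun proteins pair with each other or with a Fos protein, whereas Fos proteins need a Jun partner to bind DNA. ATF3, JDP2 and BATF join the same network and can pair with Jun proteins, and so can compete with Fos for a partner. Many of these genes are immediate early genes, transcribed within minutes after growth signals or stress through kinases of the MAP kinase family, and their messenger RNAs are short-lived. In lymphoid cells, BATF is best known for binding DNA together with Jun proteins and the interferon regulatory factors IRF4 or IRF8.

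The authors' deposited table gives each gene 1 row over the 6 libraries, with its mean normalized count, its log2 fold change and the p-value before and after adjustment, so that values of single libraries cannot be shown. Its direction is not stated. A positive value was taken to mean a higher level in S3I-201, and all directions here would flip if the authors meant the reverse. Shrinkage towards 0 is apparent, as the authors' deposited table gives genes with a single read values of only 0.033 to 0.042 in size. The error given with each is an implied SE, the size of the fold change over the normal quantile of its p-value. It is no plain measure of precision here, since it can be small for rare genes. BATF2, a relative of BATF, had 0.15 at a mean of 1.45, and JUN had 0.26 at a mean of 490. Depth was about 6560000 to 14500000 counts per library, read from the steps that a single read makes in the means of rare genes. By the sign of those genes' fold changes, S3I-201 held 14500000, 13600000 and 6560000, and DMSO 14100000, 11600000 and 10900000. The shallowest library was thus an S3I-201 one. Of 12 B-precursor markers, CD79A at a mean normalized count of 8207 and PAX5 at 8093 were among those detected in the authors' deposited table, and VPREB1 was at 0. Of 14 markers of T, myeloid, erythroid and stromal cells, 7 were at 0, and MPO, a myeloid enzyme, was the most abundant at 978 in the authors' deposited table. By the authors' DESeq2 adjusted p, 0 of the 13 tested markers passed 0.05, against 5.9% of all tested genes. Of the 13, 2 had an unadjusted value under 0.05, both of them B-precursor markers. At that unadjusted p, 1085 of the 11912 tested genes were higher and 820 lower.

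AP-1 genes were higher with S3I-201 in 8 of 10 cases: JDP2, ATF3, JUN, FOSL1, FOSB, JUND, FOS and FOSL2. JUNB and BATF did not pass an adjusted p of 0.05 in the authors' deposited table. No member was lower by the authors' DESeq2 adjusted p, nor at an unadjusted p under 0.05, in either case 0 of 10. By the unadjusted p, 820 of 11912 tested genes were lower, so 0 of 10 is near that share. By the adjusted p, 5.9% of all tested genes were called, 4.45% as higher and 1.45% as lower. At a stricter threshold of 0.01 the members called higher were 6 of 10, against 3.05% of tested genes, and at 0.1 they were 8, against 5.27%. They were 7 of 10 with adjustment over every gene with a p-value (2.92% of those genes) and 7 with the abundance trend removed (4.81%). With a log2 fold change of at least 1 in addition they were 5 (1.31%), and 4 of the 5 with a mean of at least 100 passed (4.66%). The median log2 fold change of the 10 members was 1.02, against -0.02 for all tested genes. JDP2 had the largest increase of the 10, at 3.67-fold in the authors' deposited table, and FOSL2 the smallest of the called ones, at 1.69-fold. Shrinkage can differ between genes, so the order of the deposited fold changes may not be that of unshrunken ones. The members lie in separate ranges of abundance. The 4 Fos genes and BATF had mean normalized counts from 24.7 to 62.8 in the authors' deposited table, and the Jun genes, ATF3 and JDP2 had 385 to 1115. The share of tested genes called higher was near the overall one in both ranges, at 4.13% of 1866 genes with a mean of 20 to 100 and 4.43% of 4539 genes with a mean of 300 to 1200.

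**Figure D1:**
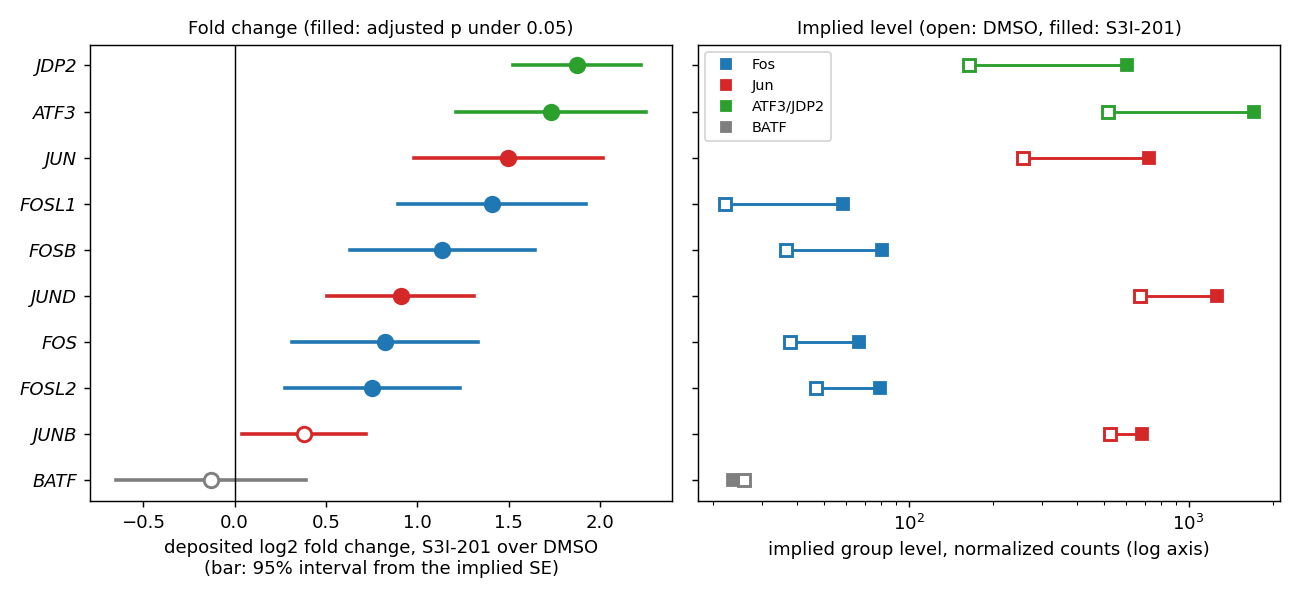
Deposited log2 fold changes of the 10 genes with 95% intervals from the implied SE (left, filled circles passed an adjusted p of 0.05), and the levels in DMSO (open squares) and S3I-201 (filled squares) that the deposited mean and fold change imply, in normalized counts on a log axis (right). The 8 called genes lie between 0.75 and 1.88, JUNB is at 0.38 and BATF at -0.13.

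**Figure D2:**
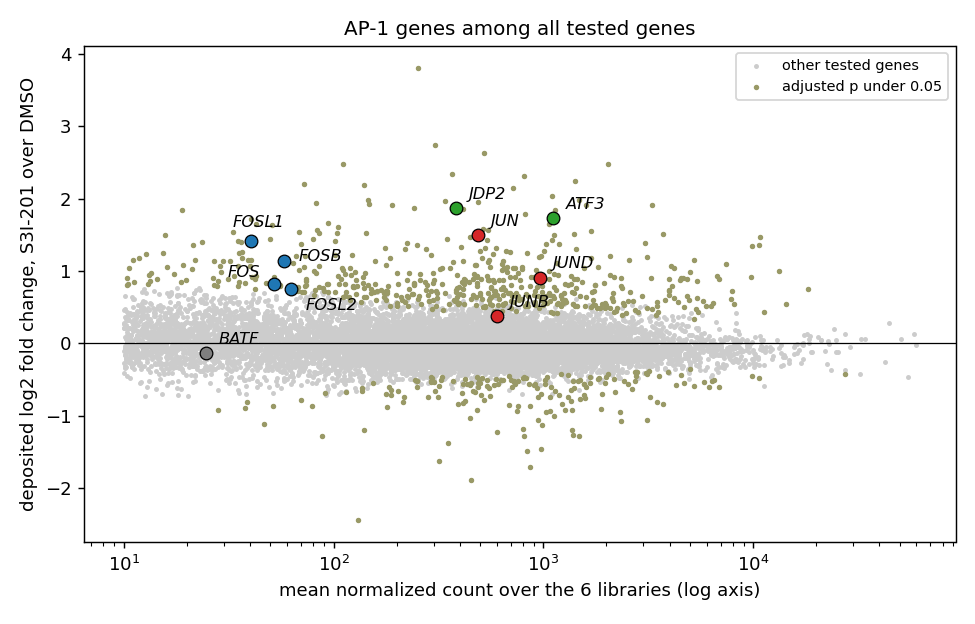
Mean normalized count (log axis) against deposited log2 fold change for the 11912 tested genes in grey, those with an adjusted p under 0.05 in olive and the 10 AP-1 genes as labelled circles. The Fos genes and BATF sit at means of 24.7 to 62.8, the other members at 385 to 1115.

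JUN, the founding member of the Jun family and a target of the kinase JNK, had a mean normalized count of 490 and a log2 fold change of 1.50 by the authors' deposited table (adjusted p = 1.46e-06, implied SE 0.26). Mean and fold change together imply about 256 normalized counts in DMSO and 725 in S3I-201. These implied levels assume that both groups weigh equally in the mean, and their gap is understated wherever the fold change is shrunken. JUND, the Jun protein that most tissues express without a stimulus, rose by 0.91 on the log2 scale by the authors' deposited table (adjusted p = 0.000451, implied SE 0.20), with implied levels of 671 in DMSO and 1261 in S3I-201. JUNB, which can antagonise JUN on some promoters, had a log2 fold change of 0.38 by the authors' deposited table (implied SE 0.17, 95% interval 0.04 to 0.72), which did not pass (adjusted p = 0.228). Its implied levels were 523 in DMSO and 681 in S3I-201. The gap to JUN was not tested, since the table gives no covariance between genes.

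Per kilobase of the principal GENCODE transcript, JUND was the most abundant of the 3 Jun genes, with a mean of 519 normalized counts per kilobase, followed by JUNB with 331 and JUN with 139. JUN made up 10.1% of the summed Jun level implied for DMSO and 16.3% of that for S3I-201. JUNB made up 39.9% and 29.8%, and JUND 50.0% and 53.9%. The implied sum of the family went from 720 to 1256 normalized counts per kilobase, a ratio of 1.74. All 3 genes are transcribed as a single exon. JUN lies on chromosome 1 from 58780788 to 58784327, and JUNB and JUND lie on chromosome 19 from 12791496 to 12793315 and from 18279760 to 18281622 (GENCODE v29, GRCh38, whole genes). JUNB shares 259 exonic bases with HOOK2 on the opposite strand. The TruSeq RNA v2 method does not mark the strand, so reads in that stretch cannot be assigned to either gene, and HOOK2 had a log2 fold change of -0.17 by the authors' deposited table (adjusted p = 0.746).

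The Jun promoters are shown because AP-1 and cyclic AMP response elements (CRE) are the sites through which ATF and Jun dimers act on their own genes. The sequences come from RefSeq (GRCh38.p14), run 5′ to 3′ along the gene, and carry the matched letters in capitals. JUN, on the minus strand at chr1:58784096-58784125 and chr1:58784215-58784244, holds the proximal and the distal element that resemble an AP-1 site, which begin 67 and 186 bases before the RefSeq start. GENCODE places the start of JUN 280 bases further upstream, so that both elements lie inside its annotated exon.
JUN proximal: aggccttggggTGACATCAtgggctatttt
JUN distal: gcagcggagcaTTACCTCAtcccgtgagcc
JUND, on the minus strand at chr19:18281688-18281837, holds a complete CRE that begins 200 bases before the start, and a reverse copy of the CRE core nearer to it.
JUND: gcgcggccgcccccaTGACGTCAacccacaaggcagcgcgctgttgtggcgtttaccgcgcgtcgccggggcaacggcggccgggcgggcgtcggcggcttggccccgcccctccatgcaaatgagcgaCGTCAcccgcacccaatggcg
JUNB, on the plus strand at chr19:12791337-12791366, holds the core alone, which begins 137 bases before the start.
JUNB: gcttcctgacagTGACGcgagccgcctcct

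All 4 Fos genes were higher with S3I-201, from low levels. FOSL1, which encodes FRA1 and is itself induced by AP-1 in many cells, had a mean normalized count of 40.3 and a log2 fold change of 1.41 by the authors' deposited table (adjusted p = 6.75e-06, implied SE 0.26). Its implied levels were 22.0 normalized counts in DMSO and 58.5 in S3I-201. FOSB stood at 1.14 on the log2 scale with a mean of 58.3 in the authors' deposited table (adjusted p = 0.000535, implied SE 0.26), or 36.5 in DMSO and 80.2 in S3I-201. FOSB and FOSL1 had more than double their implied DMSO level in S3I-201, and FOS and FOSL2 less. FOS, the prototype early gene, stood at 0.82 with a mean of 52.1 in the authors' deposited table (adjusted p = 0.0304, implied SE 0.26), and FOSL2, which encodes FRA2, at 0.75 with a mean of 62.8 (adjusted p = 0.0363, implied SE 0.24). Their implied levels were 37.6 and 46.7 normalized counts in DMSO and 66.5 and 78.8 in S3I-201. FOSL2 no longer passed when the p-values were adjusted over every gene with a p-value (adjusted p = 0.0513), nor FOS when the median fold change of genes of like abundance was removed (adjusted p = 0.0530).

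Per kilobase, FOS and FOSL1 each had 24.1 normalized counts, FOSB 15.5 and FOSL2 9.36. The Fos genes summed to 73.1 normalized counts per kilobase and the Jun genes to 988, 13.5 times as much. The implied Fos sum went from 47.2 in DMSO to 98.9 in S3I-201, a ratio of 2.09, and FOSL1 went from 27.9% to 35.5% of it. Order among the Fos genes depends on the length used: with all annotated exons of a gene, FOSL1 made up 37.6% of the summed mean and FOS 28.4%, and with the principal transcripts each made up 33.0%. The 6 libraries together gave 242 normalized counts for FOSL1 and 377 for FOSL2, against 2943 for JUN and 5797 for JUND. The implied SE did not follow these sums, at 0.26 for FOSL1, 0.24 for FOSL2, 0.26 for JUN and 0.20 for JUND. How far shrinkage enters each of these values was not tested. FOS lies on chromosome 14 from 75278774 to 75282230, FOSB on chromosome 19 from 45467995 to 45475179, FOSL1 on chromosome 11 from 65892049 to 65900573 and FOSL2 on chromosome 2 from 28392448 to 28417312 (GENCODE v29, GRCh38, whole genes).

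The Fos promoters with a RefSeq window, those of FOS, FOSB and FOSL2, share the CRE core in the same orientation and at a like distance from the start, and are printed side by side for that reason. The core begins 64 bases before the start in FOS (plus strand, chr14:75278752-75278781), 60 in FOSB (plus strand, chr19:45467924-45467953) and 66 in FOSL2 (plus strand, chr2:28392780-28392809), which holds another, reverse copy 201 bases before its start.
FOS: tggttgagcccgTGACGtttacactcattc
FOSB: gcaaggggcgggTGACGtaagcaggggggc
FOSL2: ggagtctggggtTGACGtgagtgaatccac
FOSB and FOS also hold a TATA box, the usual site of the general transcription machinery, which begins 30 and 33 bases before their starts. The stretch of FOSB that holds both, on the plus strand at chr19:45467921-45467980, reads as follows.
FOSB core and TATA box: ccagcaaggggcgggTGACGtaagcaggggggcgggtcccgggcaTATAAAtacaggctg

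ATF3 and JDP2 had the largest fold changes of the 10. ATF3, a stress-induced factor that as a homodimer represses transcription, had a mean normalized count of 1115 and a log2 fold change of 1.73 by the authors' deposited table (adjusted p = 1.18e-08, implied SE 0.27). The implied levels were 516 normalized counts in DMSO and 1713 in S3I-201. JDP2, Jun dimerization protein 2, a repressor whose bZIP domain closely resembles that of ATF3, stood at 1.88 with a mean of 385 in the authors' deposited table (adjusted p = 9.31e-23, implied SE 0.18). Its implied levels were 165 and 605 normalized counts. JDP2 ranked 23 and ATF3 ranked 30 by deposited fold change, which shrinkage may reduce unequally, among the 11912 tested genes. JDP2 had the smaller implied SE of the pair, and the smallest adjusted p of the 10. JUN followed at rank 48 and FOSL1 at rank 60. Per kilobase of the principal transcript, ATF3 had 548 normalized counts, the most of the 10, and JDP2 had 71.2. Over all annotated exons ATF3 had 276 per kilobase, below JUND and JUNB. ATF3 lies on chromosome 1 from 212565334 to 212620777 and JDP2 on chromosome 14 from 75427716 to 75474111 (GENCODE v29, GRCh38, whole genes). JDP2 shares 26 exonic bases with an antisense gene.

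RefSeq gives 2 starts for ATF3 and 3 for JDP2, and a window before one start of each gene holds the element that ATF4 and C/EBP proteins bind as dimers. It is shown because ATF3 is known as a target of ATF4 in the integrated stress response, and JDP2 holds a match as well. Whether ATF4 acts on either gene here was not tested. In JDP2 it begins 16 bases before the middle of the 3 starts (plus strand, chr14:75427992-75428021), and a CRE core begins 97 bases before the same start (chr14:75427913-75427942). In ATF3 it begins 191 bases before the upstream of both starts (plus strand, chr1:212565205-212565234). The letters of the proximal JUN element recur 123 bases before that start (chr1:212565273-212565302). For the start that follows the ATF4-C/EBP element in either gene, the nearest GENCODE transcript is not the principal one used for levels per kilobase. Which starts the cells used was not tested.
JDP2 ATF4-C/EBP element: tatatagccggggcTGATGCAAcccgtccc
JDP2 CRE core: tccgtccccctcTGACGtctggagctggca
ATF3 ATF4-C/EBP element: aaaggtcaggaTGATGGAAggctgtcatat
ATF3 element of the JUN type: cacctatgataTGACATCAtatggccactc

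BATF, the lymphoid partner of Jun proteins and IRF4, had a mean normalized count of 24.7 and a log2 fold change of -0.13 by the authors' deposited table (adjusted p = 0.897, implied SE 0.26). The 95% interval from the implied SE ran from -0.65 to 0.39 on the log2 scale. The implied levels were 25.8 normalized counts in DMSO and 23.6 in S3I-201, and the 6 libraries together gave 148. BATF lies on chromosome 14 from 75522425 to 75547015 (GENCODE v29, GRCh38, whole gene). Of its relatives and partners, IRF4 had a log2 fold change of 0.20 at a mean of 28.1 and BATF3 of -0.01 in the authors' deposited table. IRF8 with a mean of 3.59 and BATF2 with 1.45 were too rare for an adjusted p there. By the authors' DESeq2 adjusted p, 0 of the 2 tested passed, against 5.9% of all tested genes. At an unadjusted p under 0.05 it was also 0, against 1085 higher and 820 lower of 11912 tested genes.

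Promoter windows of 250 bases upstream of the start matched 9 of the 10 members by symbol, all but FOSL1, with 12 windows in all. The CRE core TGACG was found in 7 of the 9 genes, namely FOS, FOSB, FOSL2, JUN, JUNB, JUND and JDP2. It stood in 36.2% of 9538 tested genes with a window and in 21.2% of all 35116 windows, and it overlaps the complete CRE. The other shares are given in the same order, of tested genes with a window and then of all windows, where a gene with several windows counts once. The complete CRE TGACGTCA was found in JUND, and in 3.40% and 1.65%. The AP-1 site TGACTCA was found in 0 of the 9 genes, and in 3.68% and 4.20%. TGACATCA was found in JUN and ATF3, and in 1.68% and 2.37%. TTACCTCA was found in JUN, and in 0.786% and 0.644%. The ATF4-C/EBP element TGATGNAA was found in ATF3 and JDP2, in 209 of the 9538 tested genes and in 3.14% of all windows. The STAT element TTCNNNGAA was in 0 of the 9 genes, and in 7.62% and 6.57%. The CArG box, through which serum response factor acts, was in 0 of the 9, and in 1.45% and 1.16%. Both strands were searched, except for the TATA box TATAAA, which was searched on the strand of the gene and found in ATF3, FOS, FOSB and JUNB, and in 4.73% and 6.80%. Its letters begin 33, 30 and 31 bases before the start in FOS, FOSB and JUNB, but 230 bases before the downstream start of ATF3. FOS, FOSB, FOSL2, JUN, JUND and JDP2 hold the core and rose, and JUNB holds it and did not pass. Without the core, ATF3 rose and BATF did not pass. Whether the core has a part in the rise was not tested. A match describes these letters in these windows and is no measurement of binding. Bases more than 250 before the start, and starts without a window, were not searched, so a 0 does not show that a gene lacks the element.

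**Figure D3:**
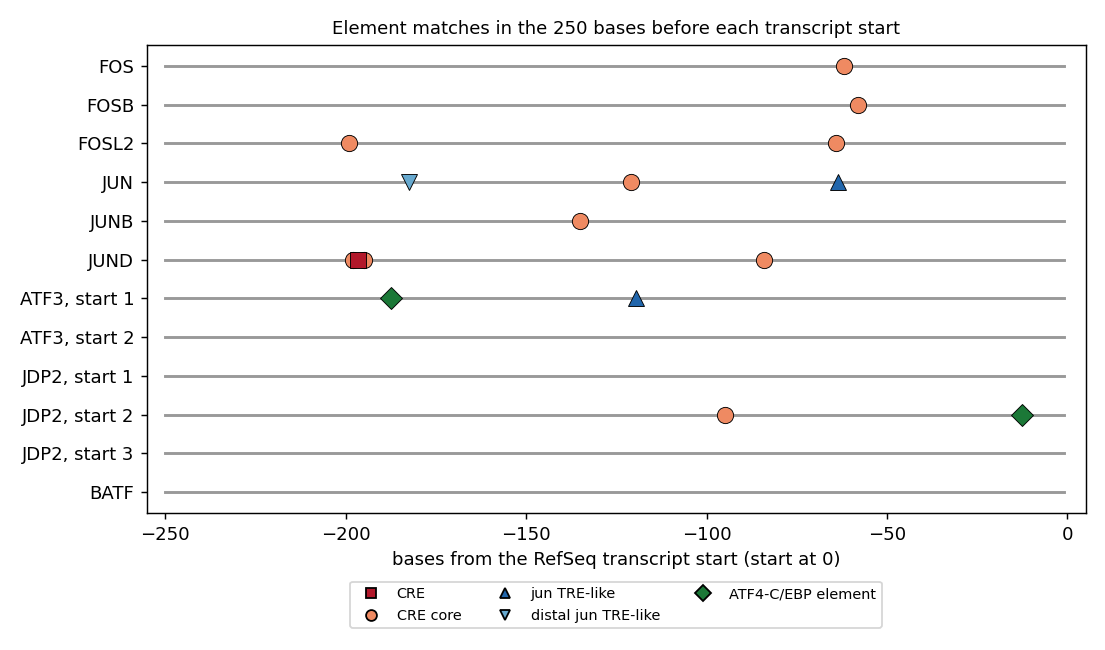
Matches of 5 elements in the 250 bases before each RefSeq transcript start, with the distance from the start in bases on the x axis and 1 line per window. The CRE core lies 60 to 66 bases before the start in FOS, FOSB and FOSL2, and the ATF4-C/EBP element lies 16 bases before start 2 of JDP2.

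Other bZIP factors, the wider family from which AP-1 dimers draw partners, were higher in 13 of 31 tested cases, where 4.45% of all tested genes were higher. The other 18 did not pass, and the median log2 fold change was 0.20. None was lower by the authors' DESeq2 adjusted p, 0 of 31, which is near the 1.45% of all tested genes that were lower. At an unadjusted p under 0.05, 1 was lower, against 820 of 11912 tested genes. DDIT3, the stress factor CHOP, stood at 1.86, CREB3L2, a membrane-bound factor of the secretory pathway, at 1.55, ATF5, a relative of ATF4, at 1.35 and CEBPB at 1.30 in the authors' deposited table. Genes of the ATF4 stress arm, which share DDIT3, CEBPB and ATF4 with the list just given, were higher in 9 of 9 tested, with a median of 1.99, against the same 4.45%. The lists were chosen with earlier results of these data known, so these counts are descriptive. CHAC1, a glutathione-degrading enzyme, at 2.75, TRIB3, a pseudokinase, at 2.48 and SESN2, a sestrin, at 2.25 stood above every AP-1 gene in the authors' deposited table. Of other immediate early genes, 5 of the 13 with an adjusted p were higher, again against 4.45% of all tested genes, and 8 did not pass, with a median of 0.61. KLF2, a zinc finger factor, stood at 1.54, IER5 at 1.31, BTG2, an antiproliferative factor, at 1.23 and ZFP36, which promotes mRNA decay, at 0.65 in the authors' deposited table. MYC, the most abundant of that list with a mean of 4679, had -0.57 there without a p-value and is not among the 13. DUSP1, the next most abundant, had -0.16 in the authors' deposited table and did not pass (adjusted p = 0.676).

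The counts for kinases and factors that act on AP-1 genes stand beside 5.9% of all tested genes called in either direction, and like most genes most of them did not pass. At an unadjusted p under 0.05, 1085 of 11912 tested genes were higher and 820 lower. Of 22 kinases of the MAP kinase cascades, 1 was lower and 21 did not pass, with a median log2 fold change of -0.05. It was MAP3K5, the stress kinase ASK1, with -0.53 in the authors' deposited table (adjusted p = 0.0197, implied SE 0.16). MAP2K3, which activates p38, had 0.39 (adjusted p = 0.0538) and MAP2K6 had -0.67 (adjusted p = 0.0723) by the authors' deposited table. Among serum response factor, its cofactors, CREB1 and their kinases, 0 of 14 had a DESeq2 adjusted p under 0.05 in the authors' fit, and 2 had an unadjusted value under 0.05. These were the kinases RPS6KA4 with -0.46 (adjusted p = 0.142) and RPS6KA5 with 0.55 (adjusted p = 0.210) by the authors' deposited table. Of 12 genes for AP-1 turnover and cofactors, 0 passed by the same adjusted p and 1 had an unadjusted value under 0.05, the ubiquitin ligase scaffold CUL4A with -0.28 (adjusted p = 0.261) in the authors' deposited table. The phosphorylation of Jun proteins, through which these kinases mostly act, was not measured.

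AP-1 target genes known from other cells were higher or did not pass where they could be tested. Of 27 listed, 12 had no adjusted p, 6 of them with a mean of 0. Of the 15 tested, 6 were higher and 9 did not pass, with a median of 0.13, where 4.45% of all tested genes were higher. HMOX1, heme oxygenase, at 2.32, CDKN1A, the cell cycle inhibitor p21, at 1.90, VEGFA, a growth factor for blood vessels, at 1.02 and FTH1, ferritin heavy chain, at 0.92 were named for the smallest adjusted p by the authors' deposited table. Each of these 4 is also a known target of other stress factors. None was lower by the authors' DESeq2 adjusted p or at an unadjusted p under 0.05, in either case 0 of 15. By the adjusted p, 1.45% of all tested genes were lower, and by the unadjusted p 820 of 11912, so 0 of 15 is near those shares.

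**Figure D4:**
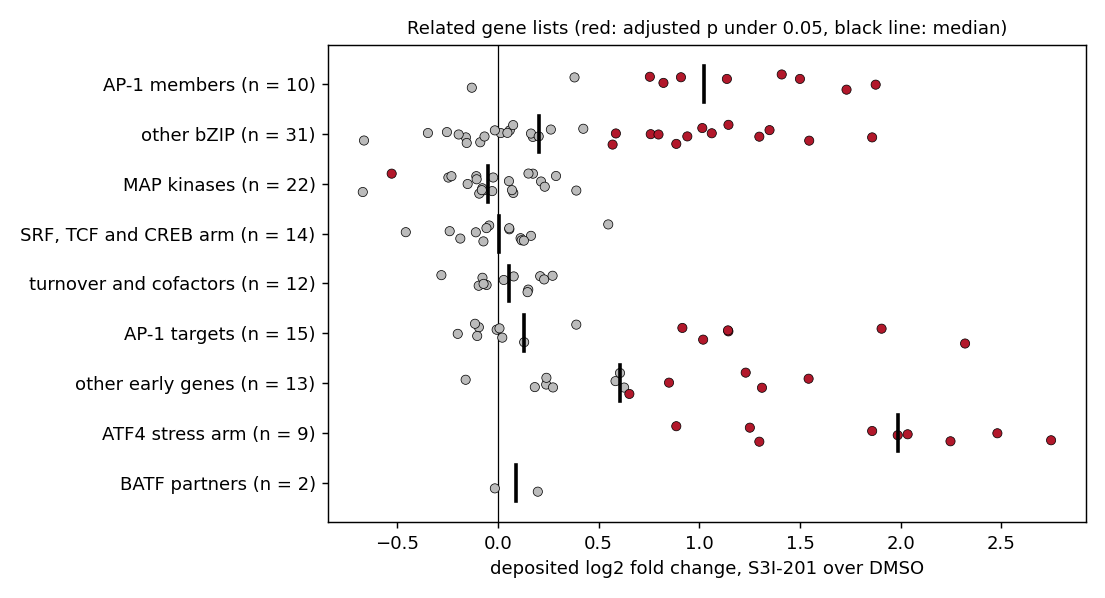
Deposited log2 fold changes of the 10 AP-1 genes and of the tested members of 8 related lists, 1 point per gene, red where the adjusted p is under 0.05, with the median of each list as a black line. The AP-1 median is 1.02, that of the ATF4 stress arm 1.99, and those of MAP kinases, the SRF, TCF and CREB arm and turnover genes lie at -0.05, 0.01 and 0.05.

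The genes next to AP-1 genes on the chromosome were taken from the RefSeq order. The nearest tested genes on either side gave 16 neighbours that are no AP-1 members, of which 1 was higher, 1 was lower and 14 did not pass, with a median log2 fold change of -0.05. With 4.45% of all tested genes higher and 1.45% lower, these counts are close to the background and say nothing particular of the neighbours. CCDC85B, which lies 414 bases from FOSL1, was lower at -0.59 in the authors' deposited table (adjusted p = 0.0454, implied SE 0.20), opposite to FOSL1 at 1.41. TMED10, a cargo receptor of the secretory pathway that lies 102 kb from FOS, was higher at 0.52 in the authors' deposited table (adjusted p = 0.00861). On chromosome 14, FOS, JDP2 and BATF are neighbours among tested genes, with 145 kb between FOS and JDP2 and 48.4 kb between JDP2 and BATF. JDP2 at 1.88 thus lay between FOS at 0.82 and BATF at -0.13 in the authors' deposited table. BATF3 is the next tested gene after ATF3 on chromosome 1, at a distance of 65.6 kb, and had -0.01 against 1.73 for ATF3 in the authors' deposited table.

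**Figure D5:**
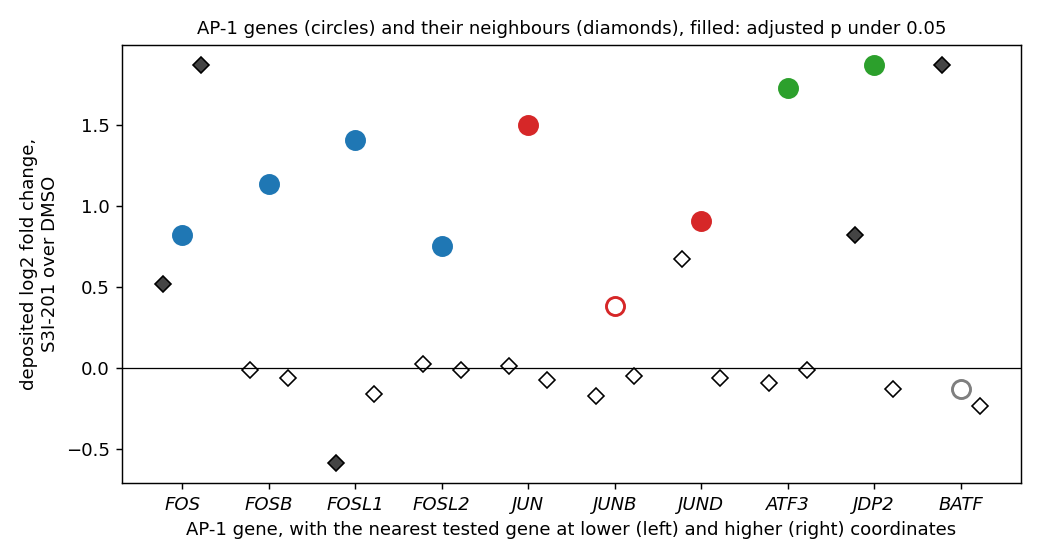
Deposited log2 fold change of each AP-1 gene (circle) and of the nearest tested gene at lower and at higher coordinates (diamonds to its left and right), filled where the adjusted p is under 0.05. Of the 16 neighbours that are no AP-1 genes, 14 did not pass, CCDC85B beside FOSL1 was lower and TMED10 beside FOS was higher.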

How the data were processed

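RNA of 3 DMSO and 3 S3I-201 cultures of REH was purified with a column kit and made into TruSeq RNA v2 libraries, per the labels' protocols. The submitters' processing notes name the build hg38 and, without roles, DESeq2, featureCounts, Picard, Bowtie2, Trimmomatic and bcl2fastq. Which annotation, strand setting and model were used is not given in the sources used here. Mean normalized counts are a signal, which per the file headers the authors computed with DESeq2 as counts over size factors. The authors' log2 fold change, p-value and adjusted p were used as deposited, per the file headers. An adjusted p was given for 11912 genes, all with a mean of at least 10.0. Size factors came from 6 repeated steps that explained 100% of 2067 means under 0.6 within 1e-07.

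An adjusted p under 0.05 made a call. Implied SEs and 95% intervals used scipy 1.17.1. On simulated data without shrinkage the SEs were recovered by inverting the formula that made the p-values, which checks the code alone. Whether the 95% intervals hold for shrunken fold changes was not tested. Alternatives were thresholds of 0.01 and 0.1, a minimum log2 fold change of 1, Benjamini-Hochberg adjustment over the 16974 genes that have a p-value, centring of fold changes in 20 bins of abundance, and a minimum mean of 100. Named are the 10 members, per list the up to 4 genes of smallest adjusted p, and the nearest tested gene on either side of each member. CD79A, PAX5, VPREB1, MPO, IRF8, BATF2, MYC and DUSP1 were named from the fixed lists after their values were seen, and HOOK2 also as an overlapping gene. Lists came from textbook knowledge, and members, lists and searched elements were chosen with earlier results of these data known. Levels per kilobase used the longest APPRIS principal transcript of GENCODE v29. Neighbours used the RefSeq table of GRCh38.p14, in which 25198 of 26364 symbols matched.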

Additional observations from a re-analysis of the deposited data

How the results depend on the processing

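The count of 8 AP-1 genes called higher stayed within 1.5 times under thresholds of 0.01 and 0.1, adjustment over every gene with a p-value and removal of the abundance trend. It was 5 with a minimum log2 fold change of 1, which left out JUND, FOS and FOSL2, and 4 of 5 with a minimum mean of 100, which by construction left out the Fos genes and BATF and gave a median log2 fold change of 1.50. FOS and FOSL2 did not pass at 0.01. JUNB and BATF passed under none of these settings, and no member changed sign. Over all genes, 79 were lower at a threshold of 0.01 and 270 at 0.1, and a minimum log2 fold change of 1 left 156 higher and 22 lower. In the related lists together, 0 were lower at 0.01, 3 at 0.1, 0 with the minimum fold change and 2 with the trend removed, against 1 as deposited. No paired analysis was possible because the table holds no values per library, and leaving out single libraries was not run for the same reason. Summed normalized counts over the 6 libraries ran from 148 for BATF to 6689 for ATF3, with implied SEs of 0.26 and 0.27.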

Other observations

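Elements of the AP-1 promoters were also counted in all genes called higher. Of 427 such genes with a window, 21 or 4.92% held the ATF4-C/EBP element TGATGNAA, against 209 of 9538 tested genes. TGACATCA stood in 3.51% of the higher genes and 1.68% of tested genes, and the AP-1 site TGACTCA in 5.85% and 3.68%. The TATA box stood in 7.73% and 4.73%, the CArG box in 2.34% and 1.45%, the complete CRE in 3.75% and 3.40% and TTACCTCA in 0.703% and 0.786%. The CRE core TGACG stood in 39.3% and 36.2%, and the STAT element TTCNNNGAA in 7.49% and 7.62%. These shares are descriptions, and no test was made of them.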
